A study of Mus musculus with 64 samples.

Results

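Ang4, the gene of the antimicrobial ribonuclease angiogenin 4, varied widely between proximal colons of BXD mice fed chow diet (CD). The arrays described here are the CD arrays of the 10 BXD strains with the highest and the 10 with the lowest log2 Ang4, which makes 20 of the 30 CD arrays of BXD strains and of 64 arrays in all. The values of Ang4 itself chose these arrays, so its CD levels are a description and its difference between the groups carries no test, while every other gene was compared between both groups. The Ang4-high strains were BXD43, BXD48a, BXD73, BXD79, BXD45, BXD55, BXD62, BXD49, BXD81 and BXD87, in falling order of Ang4, and the Ang4-low strains were BXD11, BXD66, BXD90, BXD40, BXD6, BXD32, BXD34, BXD69, BXD39 and BXD67. BXD strains are inbred lines bred from C57BL/6J and DBA/2J mice, so each carries its own fixed mix of the alleles of both parents. All arrays came from male mice of 29 weeks, and the calories of CD came from fat (18%), carbohydrate (58%) and protein (24%). The high-fat diet (HFD) of the other arm, fed from 8 weeks of age, drew 60.3% of its calories from fat, 21.4% from carbohydrate and 18.3% from protein. Each strain had 1 Clariom S array per diet, hybridised with RNA pooled from about 5 mice that were refed for 4 h before collection. The strain is therefore the replicate, and the spread between mice of 1 strain was not measured. Values are log2 array signals, and differences are Ang4-high minus Ang4-low on the log2 scale. The medians of the 20 arrays lay between 6.54 and 6.74 in the Ang4-high and between 6.55 and 6.73 in the Ang4-low group.

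Angiogenin 4 is secreted by Paneth cells of the small intestine and by goblet cells of the large intestine of mice, and it kills bacteria. Retnlb encodes resistin-like beta (RELM beta), a goblet cell protein with antibacterial activity that is known to be induced by bacterial colonisation and, during worm infection, by the type 2 cytokines IL-4 and IL-13. Ang4, Retnlb and the lectin gene Itln1 are often measured together in such type 2 responses of the gut, in which tuft cells release IL-25 and lymphoid cells release IL-13.

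The DNA before the start of Ang4 and of its relative Ang5, and before Mptx1 and its relative Mptx2, is shown because these pairs of relatives carry similar sequence before their starts, and Ang5 and Mptx2 passed the test between the HFD groups, though not on CD. Each stretch is the 250 bases before the gene start in RefSeq (GRCm38.p6), which gave 9 of the 13 genes looked up, and capitals mark the longest run that both genes of a pair share. Ang4 lies at chr14:51773591-51773840 on the minus strand, Ang5 at chr14:43956819-43957068 on the plus strand, Mptx1 at chr1:174330268-174330517 on the plus strand and Mptx2 at chr1:173277757-173278006 on the minus strand.
Ang4: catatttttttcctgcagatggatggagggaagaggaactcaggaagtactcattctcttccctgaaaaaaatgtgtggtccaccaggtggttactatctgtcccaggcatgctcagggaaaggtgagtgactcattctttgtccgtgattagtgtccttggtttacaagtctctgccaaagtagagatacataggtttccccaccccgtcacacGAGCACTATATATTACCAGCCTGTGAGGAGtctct
Ang5: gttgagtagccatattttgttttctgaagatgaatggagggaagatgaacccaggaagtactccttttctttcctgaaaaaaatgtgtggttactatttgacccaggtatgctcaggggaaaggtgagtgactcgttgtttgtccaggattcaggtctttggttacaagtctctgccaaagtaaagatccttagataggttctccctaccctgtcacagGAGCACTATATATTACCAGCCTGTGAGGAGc
Mptx1: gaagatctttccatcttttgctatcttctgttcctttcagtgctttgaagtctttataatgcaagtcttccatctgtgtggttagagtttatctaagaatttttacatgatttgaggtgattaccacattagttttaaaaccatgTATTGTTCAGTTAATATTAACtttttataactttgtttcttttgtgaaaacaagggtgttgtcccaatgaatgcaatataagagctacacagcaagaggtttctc
Mptx2: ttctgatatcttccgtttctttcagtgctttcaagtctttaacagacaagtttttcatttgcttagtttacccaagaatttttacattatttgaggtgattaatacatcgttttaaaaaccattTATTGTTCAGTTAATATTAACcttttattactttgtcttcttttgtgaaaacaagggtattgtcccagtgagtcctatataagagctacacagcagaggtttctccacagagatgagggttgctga

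Over 268 aligned positions, 211 were identical between Ang4 and Ang5 (78.7%), with a shared run of 30 bases. Mptx1 and Mptx2 shared 202 of 272 aligned positions (74.3%) and a run of 21 bases, while Ang4 and Mptx1 shared 134 of 270 (49.6%). The 9 promoters were searched on both strands for 6 motifs, and 15689 promoters of the same length served for comparison. The STAT motif TTCNNNGAA matched before Ang4 alone of the 9 genes (6.76% of all promoters), and the STAT motif with a longer spacer before Pnliprp2 alone (5.38%). The TATA box TATAAA (12.2%) matched at 2 places before Mptx1, both on the opposite strand, at -198 and -82 from the gene start. Only these exact letters counted, so the stretch TATATATTA in the marked run of Ang4 and Ang5 is not a match. The E-box CAGCTG matched before Fcgbp (12%), while the CDX motif TTTATG (9.31%) and the HNF4 motif (0.421%) matched before none. These are matches of letters only. Retnlb, Clps, Clca1 and Ang2 were the genes without a sequence here.

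On CD, Ang4 spanned 16.67 to 19.73 (median 18.91) in the Ang4-high arrays and 9.66 to 13.71 (median 11.59) in the Ang4-low arrays. The last strain inside the Ang4-high group was BXD87, at 16.67, and the next below it was BXD12, at 16.46. At the lower edge, BXD11 at 13.71 was inside the Ang4-low group and BXD48 at 13.78 just outside. The groups are thus the ends of a continuous spread, and the highest values lie close to 19.93, where the table ends.

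**Figure D1:**
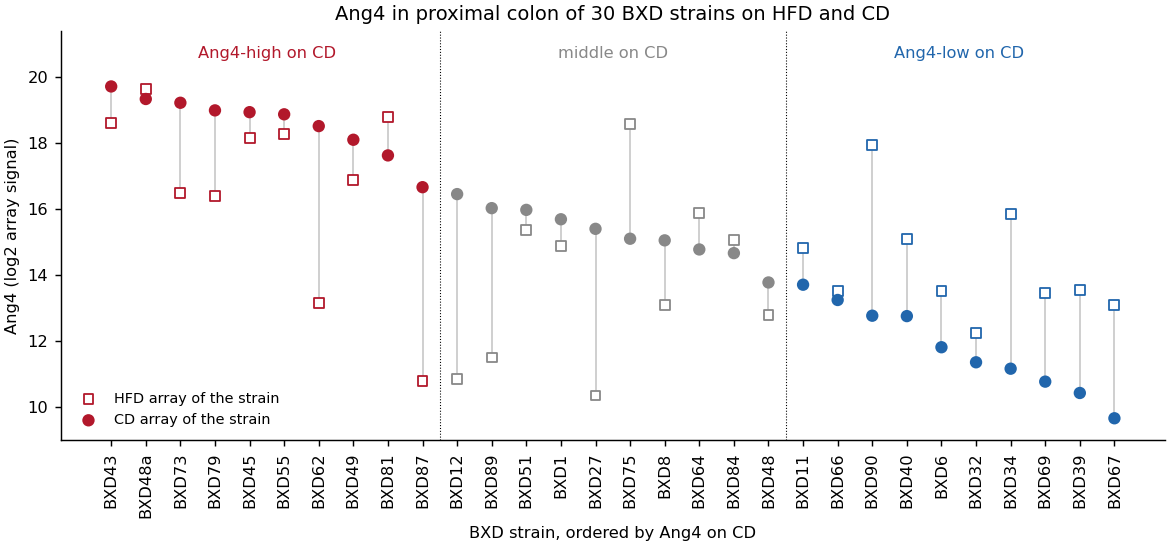
Ang4 (log2 array signal, y axis) in each of 30 BXD strains, ordered by Ang4 on CD (x axis), on CD and on HFD, with HFD as open squares and CD as filled circles and with dotted lines between the Ang4-high, middle and Ang4-low strains on CD. On HFD, BXD62 (13.17) and BXD87 (10.78) were in the Ang4-low group of that diet.

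Retnlb followed Ang4 closely. It measured 12.79 to 18.28 (median 16.49) in Ang4-high arrays and 8.78 to 12.66 (median 11.12) in Ang4-low arrays. The groups did not overlap, and the difference was 5.09 ± 0.56 (standard error, adjusted p = 1.52e-05, limma). Retnlb, Pnliprp2, Pla2g4c and Ang2 were the 4 genes of 19502 (0.0205%) whose Ang4-high arrays all lay above the Ang4-low arrays, and in 0 genes they all lay below. By adjusted p under 0.05, 9 of 19502 genes (0.0461%) were called higher and 0 lower, where 504 (2.58%) and 499 (2.56%) had an unadjusted p under 0.05.

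Pnliprp2, Clps and Pla2g4c were called with Retnlb. Pnliprp2 encodes a lipase related to pancreatic lipase, and Clps encodes colipase, the small cofactor that anchors such lipases to fat droplets. Pnliprp2 had 7.02 to 13.56 (median 11.56) in Ang4-high arrays, against 4.32 to 6.24 (median 5.37) in Ang4-low arrays. Its groups did not overlap, and its difference was 5.49 ± 0.68 (adjusted p = 0.000115, limma). Clps had 10.94 to 17.19 (median 14.01) in Ang4-high and 9.38 to 11.82 (median 10.33) in Ang4-low arrays, a difference of 3.68 ± 0.49 (adjusted p = 0.000339), with 9 of the 10 Ang4-high arrays above every Ang4-low array. Pla2g4c encodes a cytosolic phospholipase A2 that releases fatty acids from membrane lipids. It had 5.91 to 12.82 (median 8.48) in Ang4-high and 4.71 to 5.39 (median 5.18) in Ang4-low arrays, without overlap, a difference of 3.76 ± 0.62 (adjusted p = 0.00811).

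In the Ang4-low group both Pnliprp2 and Pla2g4c were below the median of all genes in 10 of 10 arrays. The files used here hold no detection call, so whether these values are above background was not tested, and neither difference is an exact size. The 10 middle CD arrays, whose Ang4 ran up to 16.46, had Pnliprp2 of 5.20 to 7.96 (median 5.74) and Pla2g4c of 5.23 to 5.86 (median 5.51), below the median of all genes in 9 and in 10 of 10 arrays. Retnlb, which was above that median in every CD array, had 10.47 to 13.52 (median 12.58) in the middle arrays. Within the Ang4-high group, BXD81 and BXD87 had the lowest Pnliprp2 (7.22 and 7.02) and Pla2g4c (5.91 and 6.34), and they also had the lowest Ang4 of the group.

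Mptx1 and Mptx2 encode mucosal pentraxins, secreted proteins of the pentraxin family made in the gut. Mptx1 had 12.47 to 19.10 (median 17.55) in Ang4-high and 5.69 to 14.91 (median 12.29) in Ang4-low arrays. Its difference of 5.03 ± 0.96 passed narrowly (adjusted p = 0.0396, limma). With 1 array left out the call was lost in 13 of 20 fits (adjusted p up to 0.108), and kept only without BXD81, BXD87, BXD11, BXD66, BXD40, BXD39 or BXD67. Mptx2 had 14.16 to 19.51 (median 18.46) in Ang4-high and 6.81 to 16.64 (median 13.98) in Ang4-low arrays, a difference of 4.17 ± 0.92 that did not pass (adjusted p = 0.139). For both genes, 8 of the 10 Ang4-high arrays exceeded every Ang4-low array, and BXD66 was the lowest array for Mptx1 (5.69).

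**Figure D2:**
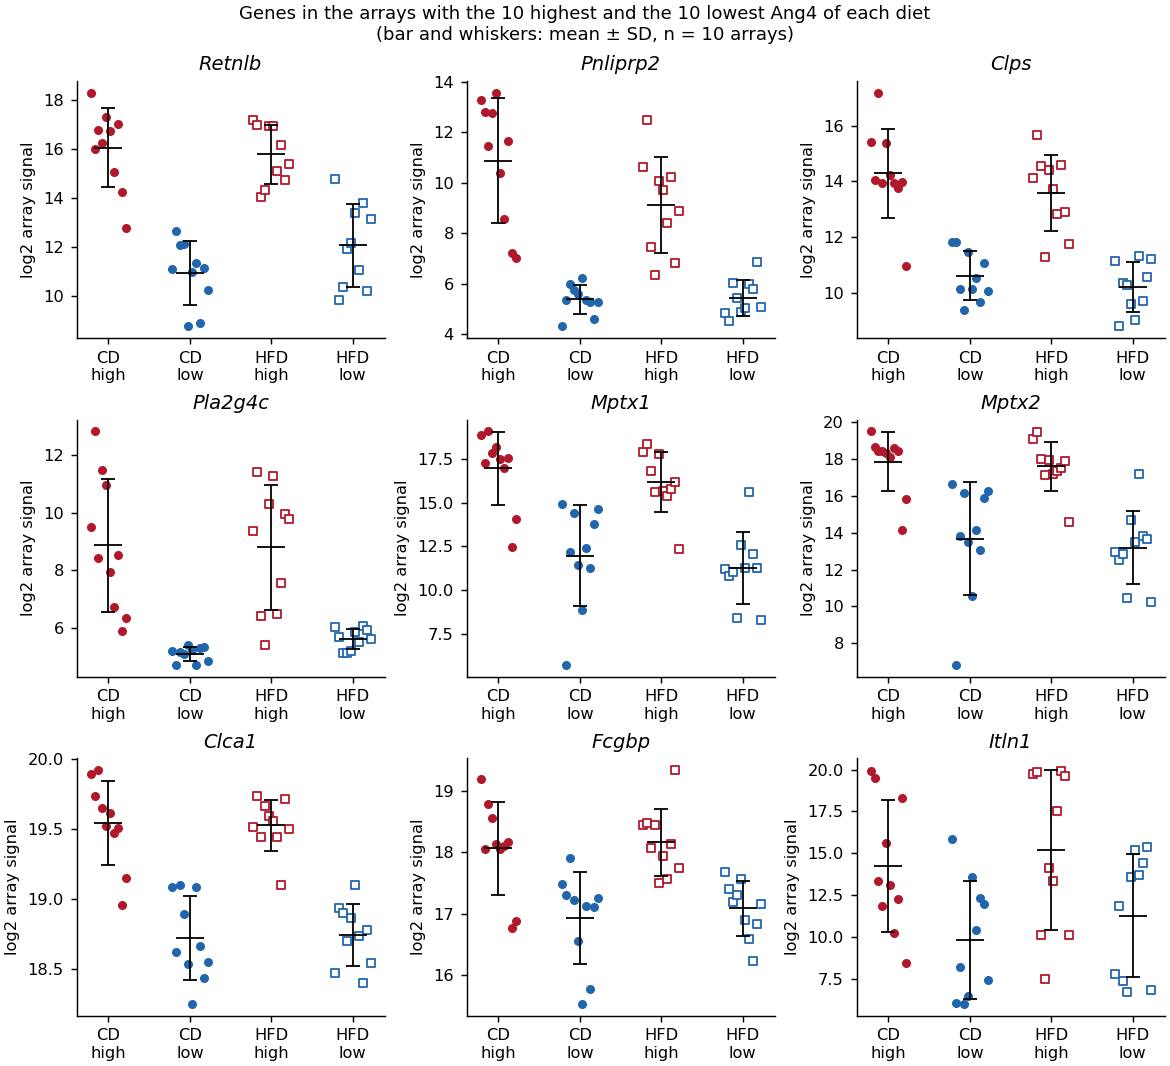
Log2 array signal (y axis) of 9 genes in the arrays with the 10 highest and the 10 lowest Ang4 of each diet (x axis), with 1 point per array (CD circles, HFD squares) and bars at the mean ± SD (n = 10). Pla2g4c sat at 4.71 to 5.39 in the Ang4-low CD arrays, while Itln1 overlapped between the groups.

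Of 30 goblet cell genes on the array, 1 was called higher and 0 lower, and their median difference was 0.16, against -0.01 over all genes. The called gene was Clca1, a secreted protease of mucus, with 18.96 to 19.92 (median 19.57) in Ang4-high and 18.25 to 19.10 (median 18.64) in Ang4-low arrays. Its difference of 0.82 ± 0.15 (adjusted p = 0.0209, limma) lay near the ceiling of the table. It was lost (adjusted p up to 0.0599) without BXD43, BXD48a, BXD73, BXD79, BXD6, BXD32, BXD69, BXD39 or BXD67, in 9 of 20 fits. Fcgbp, a mucus protein that binds IgG, differed by 1.14 ± 0.30 (adjusted p = 0.46) and the goblet cell peptide gene Spink4 by 0.91 ± 0.20 (adjusted p = 0.139), and neither passed. Muc2, the main mucin of the colon, measured 19.90 to 19.93 in Ang4-high and 19.90 to 19.93 in Ang4-low arrays, at the top of the table's range. Other goblet cell genes did not pass, with the trefoil factor gene Tff3 at 0.37 ± 0.20, Agr2, which folds mucin, at -0.29 ± 0.21 and Spdef, a transcription factor of goblet cell maturation, at 0.14 ± 0.24. Capn9, a calpain gene of secretory cells of the gut, had 7.77 to 9.18 (median 8.35) in Ang4-high and 6.78 to 8.29 (median 7.69) in Ang4-low arrays, and its difference of 0.73 ± 0.20 did not pass (adjusted p = 0.658).

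Itln1, which encodes the lectin intelectin 1, ranged over 8.47 to 19.93 (median 13.21) in Ang4-high and 6.00 to 15.85 (median 9.29) in Ang4-low arrays. The groups overlapped widely, and the difference of 4.43 ± 1.40 did not pass (adjusted p = 0.898, limma). Itln1 exceeded 12 in 7 of 10 Ang4-high, 5 of 10 middle and 3 of 10 Ang4-low CD arrays. Of the other resistin-like genes, Retnla differed by 0.94 ± 0.45 and Retnlg by 0.44 ± 0.19, and neither passed.

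Type 2 immune genes showed no call. Of 17 type 2 cytokine and receptor genes 0 passed, with a median difference of 0.02, and of 15 type 2 effector genes 0 passed, with a median of 0.12. Il13 had 5.00 to 6.01 (median 5.46) in Ang4-high and 4.70 to 5.89 (median 5.55) in Ang4-low arrays, a difference of 0.02 ± 0.16. The values were 0.26 ± 0.15 for the cytokine gene Il4, -0.02 ± 0.15 for Il25, -0.27 ± 0.17 for Il33 and 0.02 ± 0.16 for Il4ra, the receptor chain shared by IL-4 and IL-13. Il13, Il4 and Il25 were below the median of all genes in every CD array, as were 8 of the 17 genes in all 20 arrays compared, so that a difference in these genes may not have been detectable. Of 19 tuft cell genes 0 passed (median 0.10). Among them, the kinase gene Dclk1 differed by 0.49 ± 0.24, the taste channel gene Trpm5 by 0.45 ± 0.22 and Sh2d6 by 0.43 ± 0.14 (limma unadjusted p = 0.00547, adjusted p = 0.898). Of 16 mast cell and eosinophil genes 0 passed (median 0.04).

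Antimicrobial genes were mostly not called either. Of 34 on the array 1 passed, Mptx1, and the median was 0.18. Reg3b and Reg3g, lectin genes of epithelial defence, differed by 0.28 ± 0.72 and 0.90 ± 0.72, and the secreted phospholipase gene Pla2g2a by 0.40 ± 1.04. Duoxa2, the maturation factor of an epithelial enzyme that makes hydrogen peroxide, had 9.03 to 12.51 (median 10.60) in Ang4-high and 7.36 to 10.54 (median 8.39) in Ang4-low arrays. Its difference of 1.96 ± 0.39 missed the threshold (adjusted p = 0.0634, limma). Of 18 genes of the IL-22 and IL-17 axis 0 passed (median 0.05).

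The Paneth cell list had the highest median of the 30 lists, 1.27 over 17 genes, and its members Pnliprp2, Clps and Mptx1 were called. Without the arrays of BXD81 and BXD48a its median was 0.33, below the 0.72 of the pancreas and adipose list. The median of the 8 defensins of the Paneth cell list was 1.21 with and 0.14 without those 2 arrays. In BXD48a the defensin gene Defa24 measured 19.003 and the lysozyme gene Lyz1 16.31, while the other Ang4-high arrays had Defa24 of at most 8.78 and the Ang4-low arrays 6.08 to 8.22. The mean level of the Paneth cell list was 8.29 to 15.08 in Ang4-high and 6.47 to 7.91 in Ang4-low arrays. BXD81 and BXD48a also had the lowest median correlations with the other CD arrays (0.965 and 0.969). Without both and with the other arrays ranked again, 5 genes were called, and Clps, Fam221a, Mptx1 and Mzb1 were lost. With the other 18 arrays kept in their groups, 11 genes were called and Mzb1 was lost.

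Pancreas enzyme genes were high in 2 of the Ang4-high arrays. Prss2, a trypsinogen gene, measured 14.35 in BXD73 and 10.24 in BXD62, and at most 7.99 in the Ang4-low arrays. Cpa1, a pancreatic carboxypeptidase gene, measured 16.90 and 12.35 in the same arrays. The mean level of the pancreas and adipose list was 5.62 to 11.28 in Ang4-high and 5.74 to 7.62 in Ang4-low arrays, with 0 of 14 genes called. Without BXD73 and BXD62, Clps differed by 3.36 and Pnliprp2 by 5.71, both still called, among 6 called genes in all, while Mptx1 (adjusted p = 0.202, limma), Clca1 and Mzb1 (adjusted p = 0.0913 for each) were lost. Of 13 smooth muscle genes 0 passed (median 0.31), 5 were higher at an unadjusted p under 0.05, where 2.58% of all genes were, and the mean level of the list was 12.50 to 13.83 in Ang4-high and 12.33 to 13.16 in Ang4-low arrays. The part of muscle content in the other results was not tested, and in whole tissue fewer cells of a type and less RNA per cell cannot be told apart.

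Mzb1, a chaperone gene of antibody-secreting cells, was the 1 gene called of 12 B and plasma cell genes (median 0.10). It had 6.49 to 8.34 (median 7.05) in Ang4-high and 5.20 to 6.82 (median 5.85) in Ang4-low arrays, a difference of 1.23 ± 0.23 (adjusted p = 0.0396, limma). With 1 array left out this was lost in 13 of 20 fits (adjusted p up to 0.110), and kept only without BXD55, BXD49, BXD87, BXD11, BXD90, BXD32 or BXD39. Jchain, which joins IgA chains, differed by 1.37 ± 0.36, Tnfrsf17, a receptor gene of plasma cells, by 0.70 ± 0.18 and the B cell marker Ms4a1 by -0.29 ± 0.24, and none of these passed. Fam221a had 7.30 to 8.15 (median 7.54) in Ang4-high and 6.49 to 7.39 (median 6.81) in Ang4-low arrays, and was called with a difference of 0.86 ± 0.14 (adjusted p = 0.00811).

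Ang2, a relative of Ang4 on the same chromosome with 8 protein-coding genes between them, had 7.16 to 9.11 (median 8.49) in Ang4-high and 4.02 to 6.25 (median 4.92) in Ang4-low arrays, a difference of 3.23 ± 0.27. Ang5 differed by 1.27 ± 0.33 and Ang6 by 0.75 ± 0.21, and neither passed. Whether probes of these relatives also bind Ang4 RNA was not tested. The counts of called genes and of genes without overlap include these relatives where they met the threshold. Their calls are therefore not taken as those of genes that follow Ang4. Over the 13 genes of the RNase A family the median was 0.26.

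In the lower direction, where 0 genes were called, the smallest p-values belonged to Esm1, a secreted proteoglycan of vessel walls (-0.55 ± 0.12, adjusted p = 0.139, limma), B3galt2, a galactosyltransferase (-0.79 ± 0.18, adjusted p = 0.188), and Aspg, an asparaginase (-0.90 ± 0.22, adjusted p = 0.335). With the RNase A family left out, 28 of the 50 genes with the smallest p for higher levels on CD also had higher levels and an unadjusted p under 0.05 between the HFD groups described next, where 2.26% of all genes did. Of the 50 with the smallest p for lower levels, 4 were lower again, where 2.27% of all genes were.

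**Figure D3:**
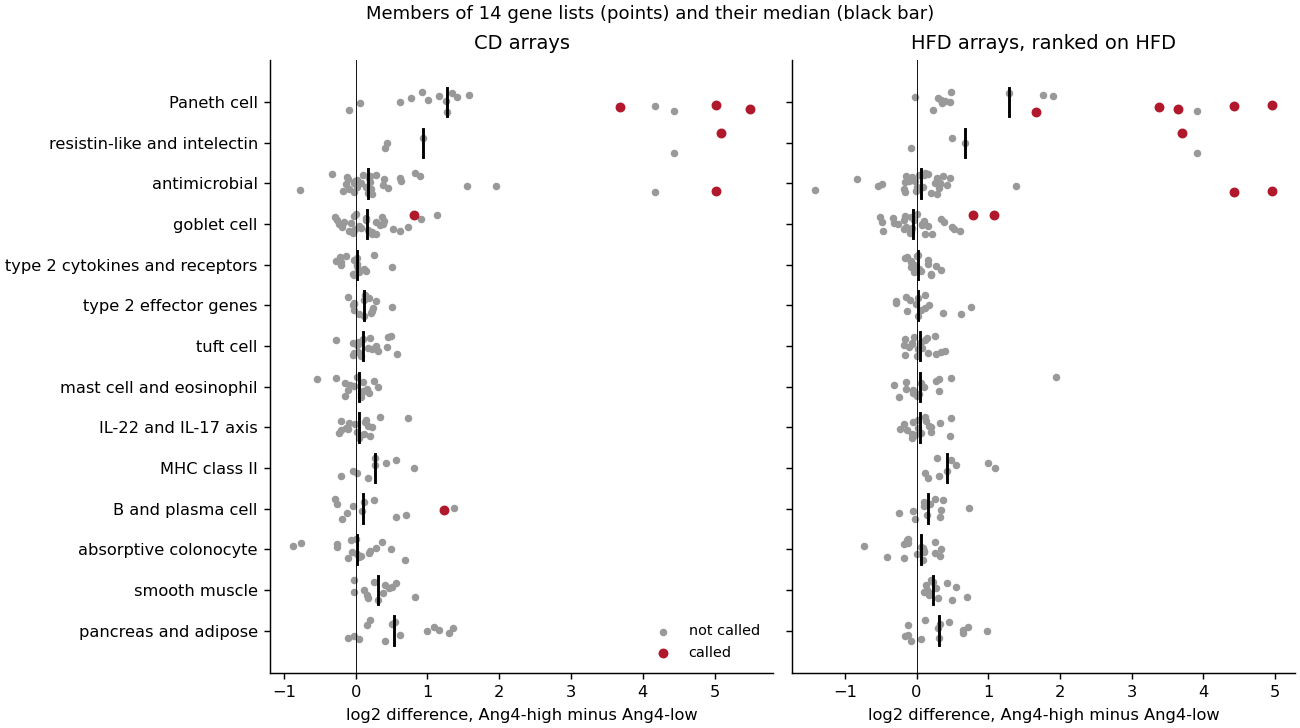
Log2 difference, Ang4-high minus Ang4-low (x axis), of the members of 14 gene lists (points, with called genes in red) and their median (black bar), in CD arrays on the left and in HFD arrays ranked on HFD on the right. The Paneth cell list has the highest median on CD (1.27), and that of the type 2 cytokines and receptors is 0.02. Without BXD81 and BXD48a, the Paneth cell median on CD was 0.33, below the 0.72 of the pancreas and adipose list. The median of the pancreas and adipose list on CD was -0.17 when BXD73 and BXD62 were left out instead.

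The HFD arrays shared no array with the CD comparison, although the strains were the same, and were ranked anew by their own Ang4. It spanned 16.39 to 19.64 (median 18.23) in Ang4-high and 10.35 to 13.46 (median 12.52) in Ang4-low HFD arrays, with BXD79 (16.39) the last inside and BXD64 (15.90) the first outside the Ang4-high group, and BXD69 (13.46) and BXD66 (13.51) at the edge of the Ang4-low group. Of the Ang4-high strains on CD, 8 were Ang4-high again and 2, BXD62 and BXD87, were Ang4-low. Of the Ang4-low strains on CD, 3 were Ang4-low again, 6 were in the middle and 1, BXD90, was Ang4-high. Between the HFD groups 11 of 19502 genes (0.0564%) were called higher and 0 lower, with 440 and 442 at an unadjusted p under 0.05. Of the 9 genes called on CD, 7 were called on HFD too, which is 77.8% of the CD genes and 63.6% of the HFD genes. Without the RNase A family, Retnlb, Pnliprp2, Clps, Pla2g4c, Mptx1 and Clca1 were called on both diets, which is 6 genes, 75.0% of 8 on CD and 66.7% of 9 on HFD.

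Retnlb had 14.02 to 17.18 (median 15.77) in Ang4-high and 9.85 to 14.77 (median 12.04) in Ang4-low HFD arrays, a difference of 3.70 ± 0.56 (adjusted p = 0.0018, limma). The groups overlapped through BXD62, whose Retnlb was 14.77 at an Ang4 of 13.17. Pnliprp2 had 6.36 to 12.49 (median 9.30) in Ang4-high and 4.53 to 6.87 (median 5.27) in Ang4-low HFD arrays (3.65 ± 0.55, adjusted p = 0.0018). Clps had 11.29 to 15.68 (median 13.92) in Ang4-high and 8.79 to 11.33 (median 10.31) in Ang4-low HFD arrays (3.38 ± 0.45, adjusted p = 0.00054). In Clps 9 and in Pnliprp2 8 of the 10 Ang4-high arrays lay above every Ang4-low array.

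The mucosal pentraxin genes were called together on HFD. Mptx1 had 12.32 to 18.39 (median 16.01) in Ang4-high and 8.30 to 15.62 (median 11.22) in Ang4-low HFD arrays (4.96 ± 0.72, adjusted p = 0.00162, limma). Mptx2 had 14.59 to 19.48 (median 17.71) in Ang4-high and 10.24 to 17.22 (median 13.23) in Ang4-low HFD arrays (4.43 ± 0.64, adjusted p = 0.00162). Among mucus genes, Clca1 had 19.10 to 19.74 (median 19.53) in Ang4-high and 18.40 to 19.10 (median 18.76) in Ang4-low HFD arrays, just without overlap (0.78 ± 0.12, adjusted p = 0.00193). Clca1 and Ang2 were the 2 genes of 19502 (0.0103%) without overlap on HFD. Fcgbp was called with 1.08 ± 0.21 (adjusted p = 0.0427), but this was lost in 15 of 20 fits that left out 1 array (adjusted p up to 0.117) and kept only without BXD45, BXD90, BXD49, BXD62 or BXD27. Pla2g4c differed by 3.17 ± 0.59 (adjusted p = 0.0253), which was lost in 12 of 20 such fits (adjusted p up to 0.0671) and kept only without BXD81, BXD49, BXD73, BXD79, BXD69, BXD62, BXD8 or BXD32. Ang5, called with 1.67 ± 0.30 (adjusted p = 0.0178), was lost without BXD55 or BXD89 (adjusted p up to 0.0539).

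Scin encodes scinderin, which cuts actin filaments in secretory cells. It had 12.45 to 13.52 (median 12.88) in Ang4-high and 11.40 to 12.45 (median 12.03) in Ang4-low HFD arrays (0.93 ± 0.15, adjusted p = 0.0049, limma), while on CD its difference of 0.94 ± 0.19 missed the threshold (adjusted p = 0.0711). Fam221a and Mzb1, called on CD alone, differed by 0.37 ± 0.15 and 0.34 ± 0.22 on HFD. The type 2 cytokine, type 2 effector, tuft cell and mast cell lists again had 0 genes called, with medians of 0.02, 0.02, 0.05 and 0.05. The mucosal mast cell protease gene Mcpt1 differed by 1.94 ± 0.64 on HFD (adjusted p = 0.998) and by 0.02 ± 0.33 on CD. The Paneth cell median on HFD was 1.29, and 0.15 without the Ang4-high array of BXD49. Defa24 measured 19.57 in that array and 16.07 in the Ang4-low array of BXD69.

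**Figure D4:**
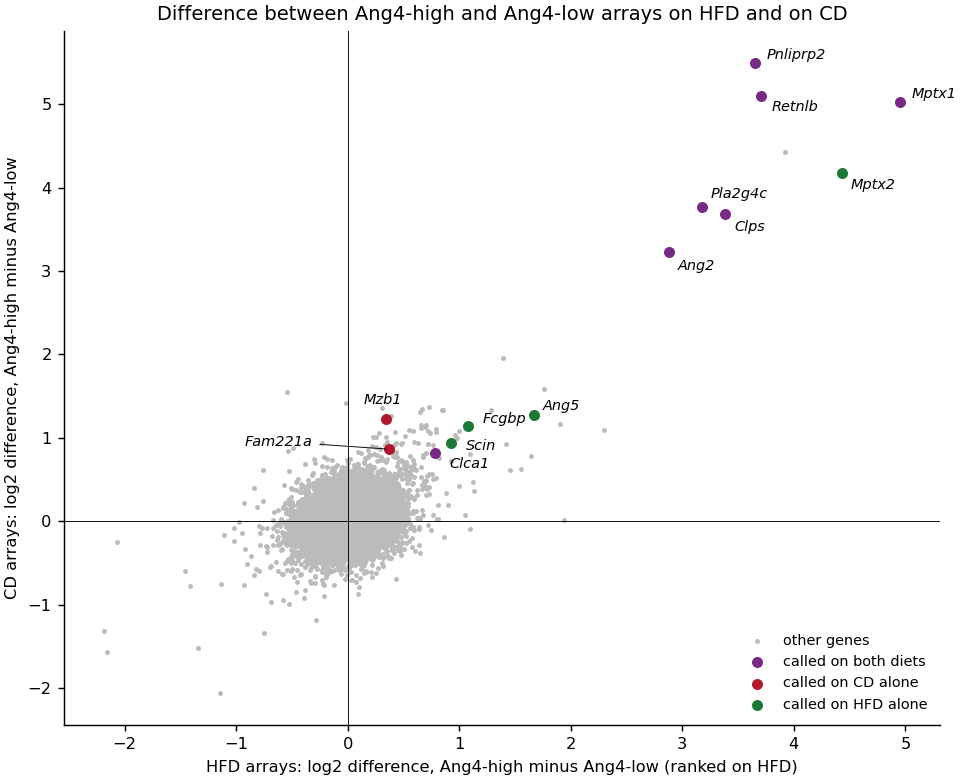
Log2 difference between Ang4-high and Ang4-low arrays for every gene but Ang4, on HFD (x axis, ranked on HFD) and on CD (y axis), with called genes coloured and named. Retnlb lies at 3.70 and 5.09 and Mptx1 at 4.96 and 5.03, away from the bulk of genes on both axes.

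Over the 30 HFD arrays, 122 named genes were correlated with Ang4. Part of them were named for their difference between these same HFD groups, and the adjustment ran over these 122 alone. Only the genes called on CD, without the RNase A family, and Itln1, named through its gene list, are therefore given here. Retnlb had Pearson's r = 0.84 and Spearman's rho = 0.82, each with a permutation p of 1e-05, the smallest that the permutations can give (adjusted p = 0.000152 and 0.000136), and r = 0.83 without the 2 arrays farthest from the median Ang4. Values of r and rho were 0.81 and 0.79 for Pnliprp2, 0.81 and 0.82 for Clps, and 0.77 and 0.78 for Clca1, with the same permutation p. Mptx1 had 0.72 and 0.75 (permutation p = 3e-05 and 1e-05, adjusted p = 0.000366 and 0.000136). Pla2g4c had 0.76 and 0.62 (permutation p = 1e-05 and 0.0004, adjusted p = 0.000152 and 0.00349). Fam221a had 0.42 and 0.44 (permutation test, adjusted p = 0.0857 and 0.0769) and did not pass. Neither did Mzb1, at 0.34 and 0.33 (permutation test, adjusted p = 0.185 and 0.232). Without the same 2 arrays, r was 0.79 for Pnliprp2, 0.77 for Clps, 0.76 for Clca1 and 0.71 for Mptx1. It was 0.73 for Pla2g4c, 0.51 for Fam221a and 0.24 for Mzb1. Itln1 had r = 0.50 and rho = 0.51 (permutation test, adjusted p = 0.0312 and 0.0304). Its difference of 3.92 ± 1.61 between the HFD groups did not pass (adjusted p = 0.998, limma). Itln1 exceeded 12 in 7 of 10 Ang4-high, 4 of 10 middle and 5 of 10 Ang4-low HFD arrays.

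The slope on Ang4 over the 60 BXD arrays of both diets, with diet as a term, called 32 genes rising (0.164%) and 5 falling (0.0256%) with Ang4. Among those rising were genes that neither comparison of 10 against 10 called. Per unit of log2 Ang4, Duoxa2 rose by 0.24 (adjusted p = 0.0223, limma), the gastrin-releasing peptide gene Grp by 0.10 (adjusted p = 0.0111) and its receptor gene Grpr by 0.16 (adjusted p = 1.76e-06). Median Grp in Ang4-high, middle and Ang4-low arrays was 6.75, 6.31 and 5.98 on CD. On HFD these medians hardly differed, at 6.03, 6.02 and 6.01. The neighbouring gasdermin genes Gsdmc2, Gsdmc3 and Gsdmc4, whose family forms membrane pores, rose by 0.20, 0.22 and 0.20, and Cd55b, a complement regulator, by 0.10. This fit took both arrays of a strain as independent. With strain as a random block 22 genes were called, and Duoxa2 was lost (adjusted p = 0.0552), while Grp, Grpr, the 3 Gsdmc genes and Cd55b were kept. With strain as a replicate block all of these were lost (adjusted p = 0.387 for Grpr, and 0.761 or above for the others). The slopes were 0.70 for Retnlb, 0.72 for Pnliprp2, 0.53 for Clps and 0.74 for Mptx1. After subtraction of the diet means, the genes most like Ang4 over the 60 arrays were Ang2 (r = 0.94), Retnlb (0.87), Clca1 (0.82), Pnliprp2 (0.81), Clps (0.76) and Pla2g4c (0.75), a description, since both arrays of a strain share a genotype. For the difference of the slope, HFD minus CD, limma called 0 genes, with 535 (2.74%) at an unadjusted p under 0.05.

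Genes were also compared by a strain's own change between diets. Ang4 was higher on HFD in 15 strains and lower in 15, and in 10 it changed by more than 3. With strain as a replicate block, so that the changes within strains carry the test, 4 genes were called (0.0205%), against 37 without it, namely Ang2, Retnlb, Pnliprp2 and Dkk3. Retnlb rose by 0.48 ± 0.07 per unit of Ang4 (adjusted p = 0.00012, limma) and moved the same way as Ang4 in 24 of 30 strains. Pnliprp2 rose by 0.47 ± 0.09 (adjusted p = 0.0359), also in 24 of 30. Mptx1 moved with Ang4 in 26 strains, but its slope of 0.54 ± 0.12 did not pass (adjusted p = 0.22), nor did that of Clps (0.30 ± 0.06, adjusted p = 0.136). Dkk3, a secreted relative of the Wnt inhibitor Dickkopf, rose by 0.13 ± 0.03 here (adjusted p = 0.0441) and differed by 0.28 ± 0.18 between the CD groups. Ranked on HFD, its median was 7.94 in Ang4-high, 8.26 in middle and 7.95 in Ang4-low arrays. Between the HFD arrays of the strains chosen on CD, Dkk3 went the other way (-0.41 ± 0.15, limma unadjusted p = 0.0138, adjusted p = 0.999). In BXD34, HFD minus CD was 4.70 for Ang4 and 3.01 for Retnlb. Earlier results of these data had put in doubt that the CD and the HFD array of BXD87, BXD89 and BXD90 come from 1 strain. Without these 3 strains, 2 genes were called, Ang2 and Retnlb (0.51 ± 0.08, adjusted p = 0.000842), and Pnliprp2 (0.51 ± 0.11, adjusted p = 0.0958) and Dkk3 (adjusted p = 0.0572) were lost. Retnlb then moved with Ang4 in 22, Pnliprp2 in 21 and Mptx1 in 23 of 27 strains.

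**Figure D5:**
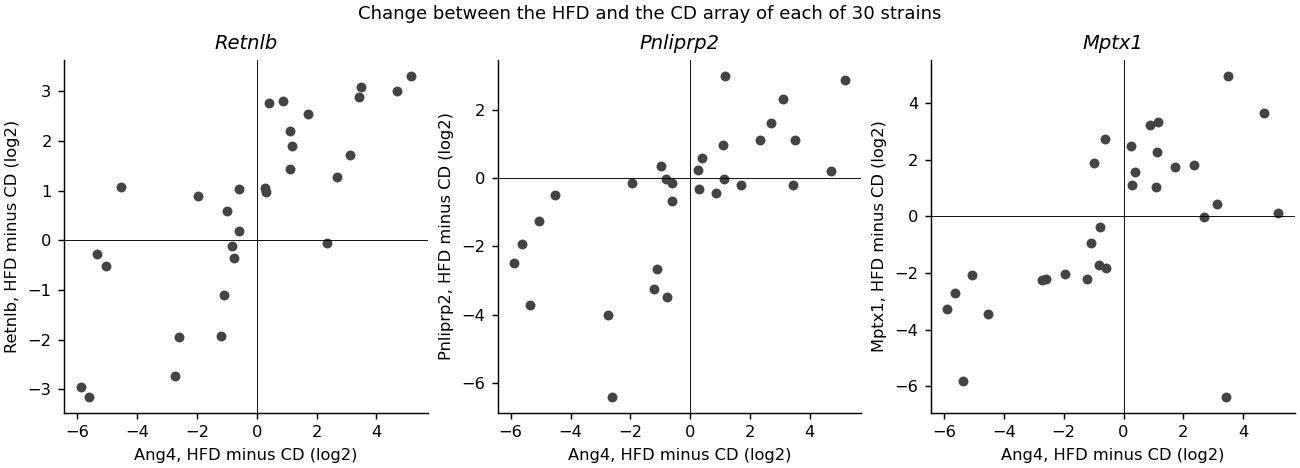
Change of Retnlb, Pnliprp2 and Mptx1 (y axes) against the change of Ang4 (x axis), each HFD minus CD in log2 units, with 1 point for each of 30 strains. Retnlb and Pnliprp2 moved the same way as Ang4 in 24 strains and Mptx1 in 26, with BXD67 (-6.36 for Mptx1 and 3.43 for Ang4) among the exceptions.

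The HFD arrays of the strains chosen on CD show how far the level stayed with the strain. Ang4 on HFD averaged 16.73 ± 2.77 in strains that were Ang4-high on CD and 14.31 ± 1.66 in strains that were Ang4-low on CD (SD, n = 10 each). The difference was 2.42 (two-sided permutation p = 0.0308), and p was above the threshold, up to 0.0579, when BXD43, BXD48a, BXD45, BXD55, BXD81, BXD32 or BXD67 was left out. It was 3.48 (permutation p = 0.00067, 9 strains in each group) without BXD87 and BXD90, whose pairing was in doubt. BXD89, also in doubt, was in neither group. On HFD, BXD87 (10.78) was Ang4-low and BXD90 (17.94) Ang4-high. Leaving these 2 strains out thus removes values that run against the difference, and the larger value is no cleaner estimate. Over all genes the deviations of the paired arrays correlated at -0.03 in BXD89, -0.02 in BXD90 and 0.24 in BXD87. The value of BXD87 was above the median of all strains (0.21). BXD51 (-0.03), below BXD90, and BXD62 (0.002) and BXD6 (0.03) were low too but were kept. Between the HFD arrays of all strains chosen on CD, limma called 0 of 19503 genes, Ang4 included, with 838 (4.3%) at an unadjusted p under 0.05. Of the 9 genes called on CD, 8 were higher at an unadjusted p under 0.05, where 2.19% of all genes were, and the exception was Mzb1 (-0.03 ± 0.25). Retnlb differed by 2.20 ± 0.72 and Pnliprp2 by 2.24 ± 0.77.

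Over the 30 strains Ang4 on CD correlated with Ang4 on HFD at r = 0.43 (permutation p = 0.0177) and rho = 0.43 (permutation p = 0.0192), and r was 0.40 (permutation p = 0.0336) without BXD39 and BXD67, the strains farthest from the median. Without the 5 strains with an array that stood apart in earlier results (BXD81, BXD48a, BXD49, BXD39 and BXD69), r was 0.30 (permutation p = 0.139). By median correlation with the other HFD arrays, BXD49 (0.961) stood apart here, while BXD39 (0.977) and BXD69 (0.976) did not.

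Ang4 also went with the breeding history of the strains. Strains numbered 43 and above come from a later round of crosses, and all 10 Ang4-high strains were of that round, on CD as on HFD. Of the Ang4-low strains on CD 4 were of the later and 6 of the earlier round, among 20 later and 10 earlier strains in all. On CD, Ang4 was 9.66 to 19.73 (median 16.35) in later and 10.43 to 16.46 (median 13.24) in earlier strains, and on HFD it was 10.78 to 19.64 (median 16.15) in later and 10.35 to 15.86 (median 13.54) in earlier strains. This split was looked at after the groups were known and is given with no test. Among the 20 later strains alone, the 10 highest against the 10 lowest gave 7 called genes on CD, with Retnlb at 4.52 and Pnliprp2 at 5.17. On HFD they gave 6 higher genes and 1 lower gene. Pnliprp2 (3.44) was among the higher, Retnlb (2.95, adjusted p = 0.138, limma) was not called, and the lower was S100g (adjusted p = 0.0285, -2.87), which encodes a calcium-binding protein. Among the 10 earlier strains the slope on Ang4 called 0 genes on either diet, and that of Retnlb on CD was 0.48, against 0.75 over all strains with the round as a term. Round and Ang4 cannot be told apart for the Ang4-high group, which holds no earlier strain.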

How the data were processed

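Proximal colon RNA was measured on Affymetrix Clariom S arrays. The authors summarised the probes as log2 intensities with Affymetrix Power Tools (apt-probeset-summarize, method gc-sst-rma-sketch). The genome build is not given in the sources used here. Of 22199 probesets, 19570 had 1 gene symbol and 2629 had none here, and the median over the probesets of a gene gave 19503 genes, with no filter on low values. BXD arrays were ranked by log2 Ang4 within each diet, and the 10 highest were compared with the 10 lowest over the other 19502 genes by limma 3.58.1 in R 4.3.3 (lmFit, eBayes, Benjamini-Hochberg, called at an adjusted p under 0.05), after the fit was tested on simulated data. Permutation tests used 100000 resamples (scipy 1.17.1). The members, the 30 gene lists (468 of 522 entries on the array) and the tests were chosen with earlier results of these data known. The Paneth cell list held Pnliprp2, Clps, Mptx1 and Mptx2 among its 17 genes on the array, of which 3 were called on CD and 5 on HFD. The named genes were Ang4, Retnlb, the RNase A family, the 15 largest differences called in each direction and diet (filled up to 10 by the smallest p), genes called on both diets and up to 3 of each list with the smallest p on CD. A further 27 genes, among them Muc2, Il13, Dkk3, Grpr, the Gsdmc genes and S100g, were picked with their values in view. For the replicate block, the CD and HFD arrays of a strain were paired by their strain label. Their deviations from the diet means correlated above 0.1 in 22 of 30 strains (median 0.21, against -0.01 between strains), and the correlation limma estimated was 0.13. In 19 of 30 strains the HFD array most like the CD array was the strain's own, and in the others it was that of another strain. Splits by round of crosses, fits without arrays high in pancreas genes, fits without arrays that stood apart but with groups kept (BXD81 and BXD48a on CD, BXD49 alone on HFD) and the replicate block without 3 strains were added after seeing the data. The 4 parental arrays entered no comparison. The number of arrays limits the precision.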

Additional observations from a re-analysis of the deposited data

Results flagged for a closer look

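In groups of 10 arrays, a highest or lowest array was flagged where its gap to the nearest other array passed Dixon's critical value for the share of the group's range. Of 244 combinations of a named gene and a group, 25 (10.2%) were flagged, where chance flags about 1 in 20 groups. None of these patterns was tested for its cause.

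Genes of Paneth cells stood out in 1 array of each of 3 groups. Among the Ang4-high CD arrays, BXD48a had Lyz1 of 16.31, Defa24 of 19.003 and Defa17 of 17.48, and the next arrays had 9.68, 8.78 and 8.59. Among the Ang4-high HFD arrays, BXD49 had Lyz1 of 18.13, Defa24 of 19.57 and Defa17 of 17.92. Among the Ang4-low HFD arrays, BXD69 had Lyz1 of 16.19, Defa24 of 16.07 and Defa17 of 14.48.

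Pancreas enzyme genes stood out in BXD73, with Prss2 of 12.55 and Cpa1 of 14.46 among the Ang4-high HFD arrays. In BXD32, among the Ang4-low CD arrays, Prss2 was 7.99 and Cpa1 9.84.

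In genes of the main comparison, BXD90 was the lowest Ang4-high HFD array with Mptx1 of 12.32 and Mptx2 of 14.59, where the next arrays had 15.38 and 17.12. This strain was Ang4-low on CD, and its Ang4 was higher by 5.17 on HFD than on CD. Clca1 was lowest in BXD81 (19.10) and Fcgbp highest in BXD75 (19.33) among the Ang4-high HFD arrays. Spink4 was lowest in BXD87 (17.85) and Muc2 in BXD49 (19.90) among the Ang4-high CD arrays.

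The other arrays so flagged were BXD79 (Esm1, 4.74) and BXD73 (Wfdc2, 10.62) among Ang4-high CD arrays, BXD6 (Gsdmc3, 11.70, and Gsdmc4, 12.10) among Ang4-low CD arrays, and BXD73 (Jchain, 14.25) and BXD55 (the mast cell protease gene Mcpt1, 12.90) among Ang4-high HFD arrays.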

How the results depend on the processing

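The count of genes called on CD, 9 in the comparison of 10 against 10, was 3 with 15 against 15 (Ang2, Retnlb and Pnliprp2), 5 without the arrays that stand apart and with the rest ranked again, and 0 for the slope among the 10 strains numbered below 43. It was 6 to 12 when 1 array was left out, lowest without BXD48a, BXD79, BXD6 or BXD69 and highest without BXD87, and 7 to 12 under the other settings run, save 6 without the arrays with pancreas enzyme genes. On HFD the count of 11 was 7 among strains numbered 43 and above, 0 for the slope below 43, and 8 to 11 when 1 array was left out. Retnlb and Pnliprp2 on CD were called under every setting but the slope below 43. In that slope Clps (-0.27) and Mzb1 (-0.017) on CD turned their direction.

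With strain as a replicate block, the count of 37 genes for the slope over both diets was 4, 2 in that fit without BXD87, BXD89 and BXD90, and 22 with strain as a random block. The difference of Ang4 on HFD between strains chosen on CD was 2.09 to 3.08 when 1 array was left out. The correlation of Ang4 between diets was 0.30 without the arrays that stand apart and -0.43 in the 10 strains numbered below 43 (permutation p = 0.213). The cause of these changes was not tested, but the fits below 43 hold fewer arrays. Genes near 19.93, such as Muc2 and Clca1, have little room to differ.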

Other observations

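The arrays of the parental strains entered no comparison, because earlier results of these data had put their labels in doubt. The array labelled DBA/2J on HFD had Ang4 of 11.92, Retnlb of 11.15, Mptx1 of 12.09, Pnliprp2 of 5.20 and Clps of 10.49. That labelled C57BL/6J on HFD had 19.59, 16.89, 19.40, 11.62 and 15.51 for the same genes. On CD, the array labelled DBA/2J had 19.62, 17.03, 19.23, 11.97 and 15.80, and that labelled C57BL/6J had 19.63, 16.59, 17.52, 11.25 and 13.89.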
